A study of Mus musculus with 12 samples.

Results

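The subunits of oxidative phosphorylation were examined across the 4 culture conditions of MIN6 cells. Members were the protein-coding genes of the count table whose symbols name subunits of complex I (Ndufa, Ndufb, Ndufc, Ndufs and Ndufv), complex II (Sdha to Sdhd), complex III (Uqcr genes and Cyc1), complex IV (Cox4 to Cox8) and ATP synthase (Atp5), or the mitochondrially encoded mt-Nd, mt-Co, mt-Atp and mt-Cytb genes. There were 106 of 54022 genes in the table, of which 22040 were protein-coding. Of these, 13 were on the mitochondrial chromosome and 93 were nuclear. The nuclear members held 84 subunits, with 36 in complex I, 4 in complex II, 9 in complex III, 20 in complex IV (Ndufa4 and Ndufa4l2 included) and 15 in complex V. The other 9 were 8 Ndufaf genes, which assist the assembly of complex I, and Atp5s, coupling factor B.

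MIN6 is a mouse insulinoma line used as a model of the pancreatic β cell, and every culture carried the wild-type (WT) genotype. Cells received 100 nM trimethylamine N-oxide (TMAO), a metabolite made from dietary choline by gut bacteria and liver, or vehicle for 18 h. After a fast they were given 2.8 mM (low) or 16.8 mM (high) glucose, for a time not given in the sources used here. Each of the 4 conditions had 3 biological replicates, and poly-T selected RNA was sequenced in pairs of reads. The labelled cell type was checked against its markers: the summed FPKM (fragments per kilobase of exon, scaled to the depth of the library) of 10 β-cell markers was 39658 to 47149 per library, while macrophage and leukocyte markers summed to at most 4.88 (Cd68 at a mean of 4.04), δ-cell markers to 2.11, acinar markers to 1.49, fibroblast markers to 0.534, endothelial markers to 0.131 and the PP-cell marker Ppy to 0.119. Of the α-cell markers, Gcg was at a mean of 216 FPKM, whereas Irx2 was under 1 FPKM in every library.

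Complexes I to IV form the respiratory chain of the inner mitochondrial membrane. Complex I takes electrons from NADH and complex II from succinate, complex III passes them from ubiquinol to cytochrome c, and complex IV to oxygen. Complexes I, III and IV pump protons, and complex V uses the resulting gradient to make ATP. All of these but complex II combine subunits from both genomes. In β cells, the ATP made from glucose closes potassium channels and so couples glucose to insulin release. Mitochondrial genes are transcribed as long precursors that are cut at the tRNAs between them, so their RNA levels are not independent of each other.

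The mitochondrially encoded genes spanned from 4.24 to 3418 FPKM (mean of 12 libraries). Mt-Co1, the catalytic core of complex IV, was highest, at 3034 to 3587 FPKM per library. It was followed by mt-Nd1 of complex I at 2434 to 2762 FPKM and by mt-Cytb of complex III at 2274 to 2675 FPKM, whose ranges overlapped. Mt-Nd2 (1424), mt-Nd5 (1117), mt-Nd6 (875) and mt-Nd4 (849), all membrane subunits of complex I, were next in mean FPKM. The remaining 6 genes were far lower: mt-Co2 at 69.8, mt-Nd3 at 55.2, mt-Co3 at 38.9, mt-Atp6 at 36.5, mt-Nd4l at 35.0 and mt-Atp8 at 4.24 FPKM. These 6 lie side by side on the mitochondrial chromosome (MT:7013-10173, GRCm38), and together they took only 0.758% to 1.01% of the mitochondrial counts of a library.

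**Figure D1:**
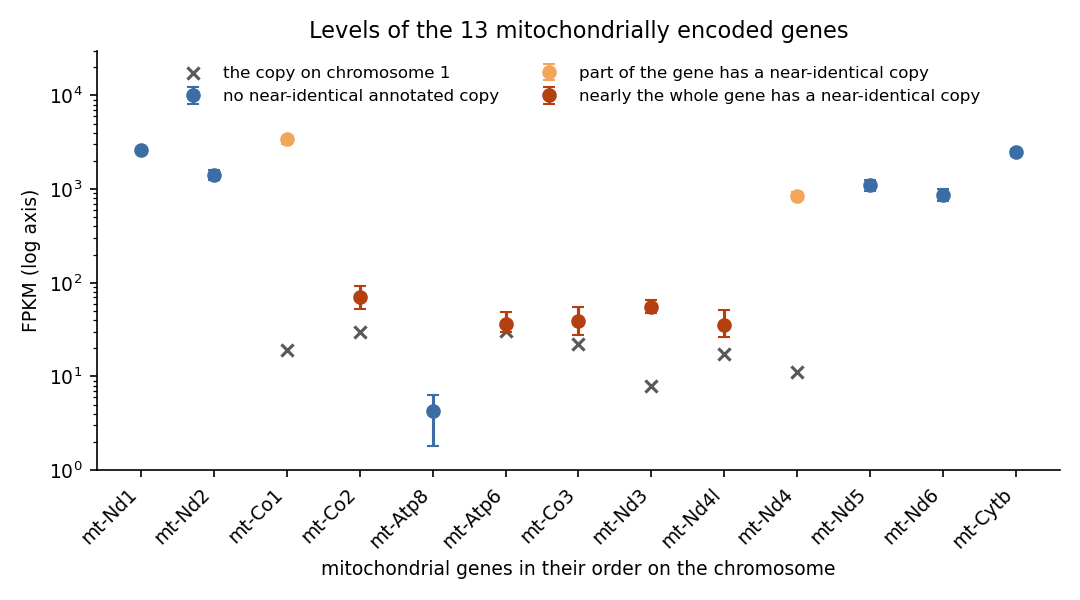
FPKM (log axis) of the 13 mitochondrially encoded genes in their order along the chromosome. Points are means of 12 libraries, bars run from the lowest to the highest library, colours give how much of the gene has a near-identical annotated copy, and crosses give the FPKM of that copy. The 6 low genes, from mt-Co2 to mt-Nd4l, stand between genes of 849 FPKM and above.

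Annotated copies of the low segment were found by aligning the GENCODE transcripts of the mitochondrial genes to all other transcripts. A block of pseudogenes on the minus strand of chromosome 1 matched mt-Co2 (Gm28661, 681 bases), mt-Atp6 (Gm10925, 678 bases), mt-Co3 (Gm28437, 783 bases) and mt-Nd4l (Gm10222, 294 bases) with 100% identity. The copy of mt-Nd3 (Gm28438) differed at 1 of 345 bases. Parts of mt-Nd4 (63.6% of the gene, Gm28439) and of mt-Co1 (31.3%, Gm29216) had near-identical copies too, whereas mt-Atp8 had none that is annotated. The first bases of mt-Nd4l and of Gm10222 are shown because they do not differ, so these bases cannot place a read. The same stretch of mt-Nd3 and Gm28438, with 1 difference, follows. The third pair, mt-Cytb and Gm11410, shows a more distant copy, with 5 differences in 90 bases. Capitals mark the bases that differ within a pair.
mt-Nd4l: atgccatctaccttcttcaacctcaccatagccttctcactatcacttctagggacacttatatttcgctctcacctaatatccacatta
Gm10222: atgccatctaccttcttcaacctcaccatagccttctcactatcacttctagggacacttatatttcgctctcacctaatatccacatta
mt-Nd3: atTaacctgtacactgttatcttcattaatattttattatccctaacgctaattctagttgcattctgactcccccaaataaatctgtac
Gm28438: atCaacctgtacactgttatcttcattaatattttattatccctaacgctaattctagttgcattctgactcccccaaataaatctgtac
mt-Cytb: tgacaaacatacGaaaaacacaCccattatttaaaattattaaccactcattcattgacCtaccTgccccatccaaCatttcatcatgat
Gm11410: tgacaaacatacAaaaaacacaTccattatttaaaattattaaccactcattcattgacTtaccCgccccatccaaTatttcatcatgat
The windows lie in GRCm38 at MT:9877-9966 and chr1:24612611-24612700 (minus strand) for mt-Nd4l, at MT:9459-9548 and chr1:24613030-24613119 (minus strand) for mt-Nd3, and at MT:14146-14235 and chr4:80003990-80004079 for mt-Cytb. All 3 mitochondrial windows are on the plus strand and in the genes' coding exons.

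The 7 chromosome 1 copies held counts of their own. Summed over the copies, 1342 to 1832 counts were recorded per library. Gm28661 had a mean of 382 counts against 902 for mt-Co2, and Gm10925 389 counts against 469 for mt-Atp6. Gm10222 had a mean of 97.2 counts against 196 for mt-Nd4l. Gm28438 had 51.6 counts against 364 for mt-Nd3. Levels of mt-Co2, mt-Atp6, mt-Co3, mt-Nd3 and mt-Nd4l are therefore uncertain, since reads that match both places cannot be told apart, and how the authors counted such reads is not given in the sources used here. The near-identical parts of mt-Nd4 and mt-Co1 share this limit. Gm28439 had a mean of 183 counts against 22099 for mt-Nd4, and Gm29216 180 against 99902 for mt-Co1. The part of such reads in the low FPKM of mt-Co2, mt-Atp6, mt-Co3, mt-Nd3 and mt-Nd4l was not tested. Mt-Atp8, at 7 to 25 counts per library, has no annotated copy of this kind, but only annotated transcripts were searched. It lies between mt-Co2 and mt-Atp6, whose copies are at chr1:24614885-24615565 and chr1:24613974-24614651, and the stretch between these copies was not aligned.

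Nuclear subunits had a median of 68.0 FPKM over 84 genes, close to mt-Co2 and below the 7 abundant mitochondrial genes, against 5.24 FPKM over the 16222 genes tested. Complex III had the highest median, at 119 FPKM, followed by complex V at 98.6, complex IV at 64.6, complex II at 57.4 and complex I at 50.2 FPKM. Within complex I, Ndufb11 was highest at 189 FPKM, and the 7 nuclear core subunits (median 48.4 FPKM) were close to the 29 accessory subunits (median 56.4 FPKM). Complex II ranged only from Sdhc at 24.6 to Sdhd at 88.9 FPKM, which anchor the enzyme in the membrane. Uqcr10 led complex III at 188 FPKM. The β subunit of ATP synthase, Atp5b, led complex V at 340 FPKM and Atp5l, a membrane subunit, was lowest at 22.7 FPKM. The FPKM of a gene is divided by the length of all its annotated exons, which is 6443 bases for Atp5l, 5628 bases for Ndufb2 and 702 bases for Cox6a1. Atp5l had a mean of 2766 counts, while Ndufb2, the lowest counted nuclear subunit of complex I at 2.51 FPKM, had 267 counts.

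**Figure D2:**
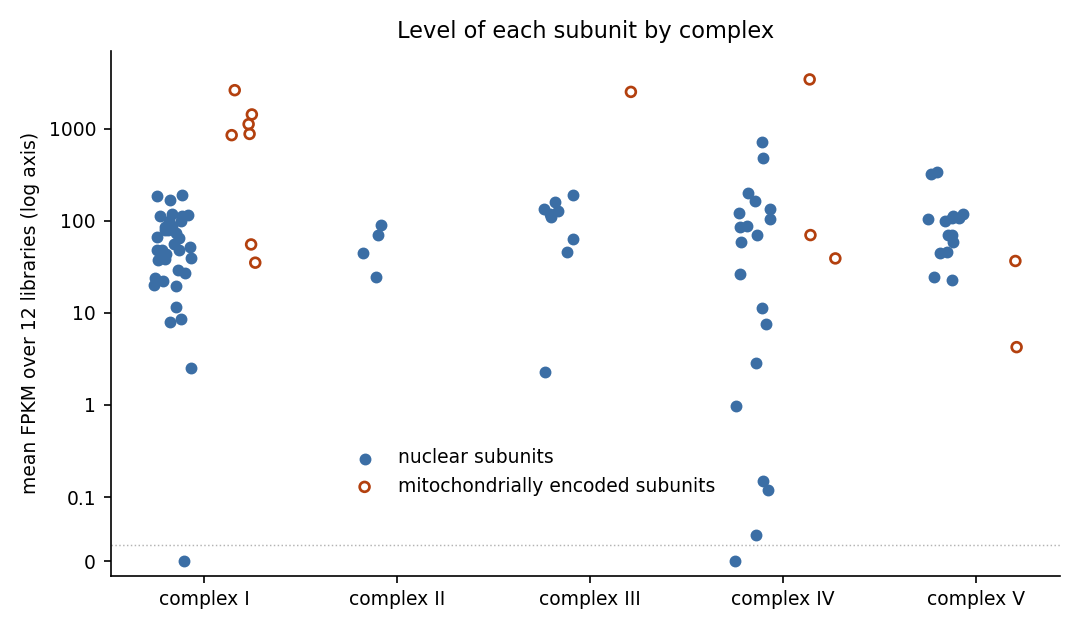
Mean FPKM over 12 libraries (log axis, with 0 drawn below the dotted line) of each subunit by complex, nuclear subunits filled and mitochondrially encoded subunits open. Cox6a1 leads the nuclear subunits at 714 FPKM, and Ndufs3 and Cox8c lie at 0.

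Complex IV showed a near-exclusive use of the widely expressed isoforms over those named for heart, muscle, lung or testis. Cox4i1 was at 202 ± 6.84 FPKM (SD, n = 12), and Cox4i2, its lung isoform, had at most 2 counts in a library. Cox6a1 was at 714 ± 32.8 FPKM and made up 98.4% of the pair with the heart and muscle isoform Cox6a2 (11.4 ± 0.874 FPKM). Cox8a was at 476 ± 22.9 FPKM, while Cox8b had at most 4 counts and Cox8c none in any library. Cox6b1 was at 164 ± 6.13 FPKM, and the testis isoform Cox6b2 had at most 7 counts. Minor isoforms were counted in the other pairs: Cox7a1, of heart and muscle, was 5.91% of the pair with Cox7a2, and Cox7b2 was 3.87% of the pair with Cox7b. Ndufa4l2, which replaces Ndufa4 under low oxygen in other cells, was 1.11% of its pair. The 3 genes for the same c subunit of ATP synthase were all expressed, with Atp5g3 at 61.5%, Atp5g2 at 24.9% and Atp5g1 at 13.5% of their sum. Shares are of summed FPKM.

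The promoter window of Cox6a1, the most abundant nuclear member, was picked for display by its number of different motifs, 4 of the 6 short ones searched. Ties went to the higher FPKM, and motifs were not compared with level. Promoter windows of 300 bases (250 before and 50 after the start, RefSeq, GRCm38.p6) were matched by symbol to 67 of the 84 nuclear subunits, in 72 windows. The NRF1 motif GCATGCGC was in 13.9% of these windows and in 2.71% of all 32851. The ETS motif CCGGAAG, bound by GABP, was in 22.2% against 8.86%, and the YY1 motif AAGATGGC was in 12.5% against 2.75%. The SP1 motif GGGCGG (38.9% against 35.7%), CCAAT (41.7% against 37.4%) and TATAAA (11.1% against 13.6%) were near their shares over all windows. Both strands were searched, no match was tested as a site, and the YY1 motif was found in 7 of 34 windows of complex I, 0 of 3 of complex II, 0 of 5 of complex III, 0 of 14 of complex IV and 2 of 16 of complex V, differences that were not tested. The Cox6a1 window (chr5:115348909-115349208, minus strand) is shown with its NRF1, ETS, SP1 and CCAAT matches in capitals, the first of which overlaps itself on both strands. Below it stands a window of Atp5d (chr10:80142025-80142324, plus strand), the nuclear subunit called between glucose levels, in which none of the 6 motifs was found.
Cox6a1: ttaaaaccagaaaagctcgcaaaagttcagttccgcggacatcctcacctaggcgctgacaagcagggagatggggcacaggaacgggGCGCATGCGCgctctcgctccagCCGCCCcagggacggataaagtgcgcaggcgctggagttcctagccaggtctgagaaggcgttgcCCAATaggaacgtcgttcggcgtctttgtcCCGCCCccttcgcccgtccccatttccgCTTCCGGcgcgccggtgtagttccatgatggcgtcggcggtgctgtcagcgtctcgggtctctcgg
Atp5d: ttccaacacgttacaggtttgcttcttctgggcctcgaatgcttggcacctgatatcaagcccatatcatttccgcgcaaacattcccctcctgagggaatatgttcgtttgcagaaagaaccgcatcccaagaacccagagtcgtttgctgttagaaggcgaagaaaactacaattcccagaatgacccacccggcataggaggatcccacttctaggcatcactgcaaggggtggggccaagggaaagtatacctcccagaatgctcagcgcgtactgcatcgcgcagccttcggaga

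Of the 106 members, 101 had enough counts to be tested among the 16222 genes that passed the filter. Cox4i2, Cox6b2, Cox8b, Cox8c and Ndufs3 did not pass the filter. Ndufs3, a core subunit of complex I (chr2:90894634-90904827), was listed at 0 in all 12 libraries, as were its neighbours C1qtnf4 and Kbtbd4. Values of Ndufs3 and Uqcrc1 were looked at because they were low. Uqcrc1, a core protein of complex III (chr9:108936633-108949623), was at 2.30 FPKM although Uqcrc2 was at 45.7 FPKM. Before Uqcrc1 on the chromosome, Nckipsd and Tmem89 were at 0 in every library. After it, Col7a1 had 18 to 65 counts, Pfkfb4 91 to 145 and Shisa5 722 to 1057, while Trex1 was at 0. The table also holds genes on patch scaffolds. One at the position of Ndufs3, with the domain of the 30 kDa subunit of complex I, had 4 to 153 counts, whereas the patch genes near Uqcrc1 end before it, at base 108864918. Whether reads of Ndufs3 were counted on a scaffold was not tested, and the levels of Ndufs3 and Uqcrc1 are uncertain.

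The libraries held 16793162 to 22340542 counts. The 13 mitochondrially encoded genes took 1.47% to 1.72% of them and the 84 nuclear subunits 1.12% to 1.18%. Mitochondrial shares averaged 1.57% ± 0.0421 (SD, n = 3) at low glucose with vehicle, 1.59% ± 0.101 at low glucose with TMAO, 1.56% ± 0.0883 at high glucose with vehicle and 1.67% ± 0.0494 at high glucose with TMAO. The libraries of the last condition, at 1.72%, 1.62% and 1.68%, overlapped those of high glucose with vehicle, at 1.47%, 1.64% and 1.58%. Nuclear shares were 1.15% ± 0.0312, 1.14% ± 0.0352, 1.15% ± 0.00291 and 1.15% ± 0.0292 in the same order. The ratio of mitochondrial to nuclear counts was 1.44 to 1.48 at high glucose with TMAO and 1.27 to 1.42 at high glucose with vehicle, which did not overlap, but at low glucose with TMAO it reached 1.49. A share of RNA can move with the amount of RNA per mitochondrion or with the number of mitochondria, and these cannot be told apart here, nor in bulk RNA can fewer cells of a kind be told apart from less RNA per cell.

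**Figure D3:**
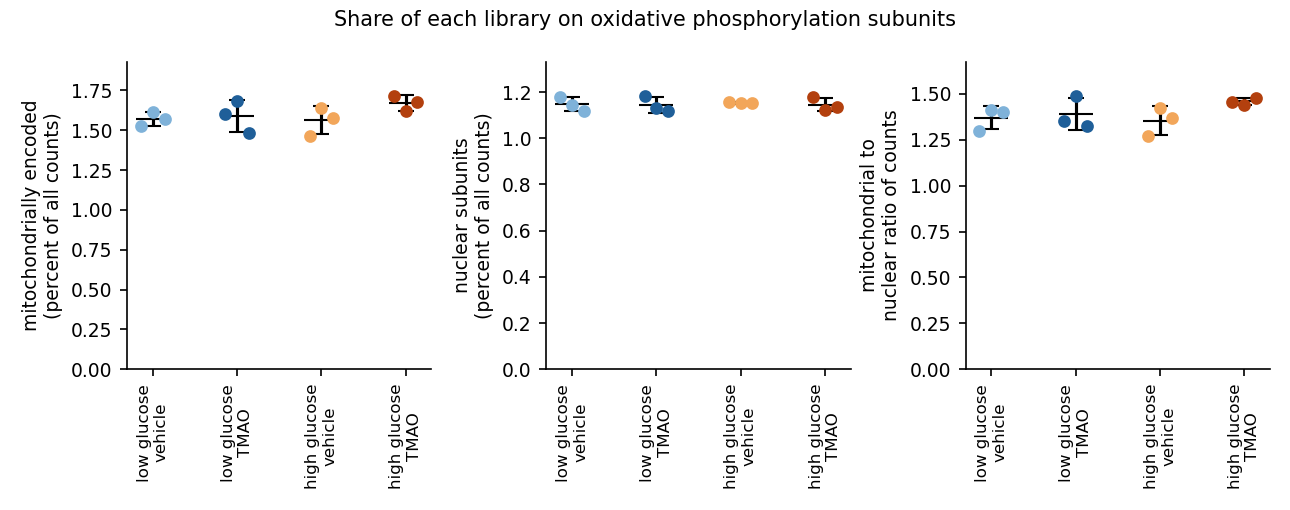
Share of all counts on the 13 mitochondrially encoded genes and on the 84 nuclear subunits, in percent, and the ratio of the mitochondrial to the nuclear counts. Points are libraries, horizontal bars are means and error bars are SDs of 3 libraries. The ratio at high glucose with TMAO, 1.44 to 1.48, sits at the top of the range of the other conditions.

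Glucose was compared first. With vehicle, no member differed between 16.8 and 2.8 mM glucose (0 of 101 at an adjusted p under 0.05 in edgeR's quasi-likelihood test, beside 3.3% of the genes tested). At an unadjusted p under 0.05 there were 6 members, all higher, beside 13% of all genes. DESeq2 and limma called none. The 5 members of lowest p were Ndufa5, a complex I accessory subunit (log2 fold change 0.13 ± 0.05, SE), mt-Nd4l (0.31 ± 0.13), Uqcrq of complex III (0.10 ± 0.05), Cox7b (0.11 ± 0.05) and Atp5d, a subunit of the ATP synthase rotor (0.10 ± 0.05), with adjusted p-values from 0.162 to 0.329. The groups of 3 libraries did not overlap for 16 members, beside 18.8% of all genes. Fitted fold changes were above 1 for 54 of 79 nuclear subunits (median log2 fold change 0.03) and for 9 of 13 mitochondrial genes (median 0.02), beside 50.7% of all genes (median 0.00). The mitochondrial count turned to 5 of 13 without high glucose + vehicle replicate 2 and to 6 of 13 without low glucose + vehicle replicate 1, so it gave no stable direction. The nuclear count ran from 40 of 79 without low glucose + vehicle replicate 3 to 64 of 79 without low glucose + vehicle replicate 1.

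With TMAO in both arms, mt-Nd3 was the 1 member called between glucose levels, beside 3.64% of the genes tested (2% higher). This small subunit of complex I lies at the junction of its membrane and matrix arms. Its normalised read counts were 413, 431 and 394 at high glucose and 349, 347 and 311 at low glucose. The 3 high-glucose libraries were all above the low-glucose ones, with a log2 fold change of 0.30 ± 0.08 (1.23-fold, adjusted p = 0.0285). The call held in 18 of 22 alternatives, with adjusted p-values from 0.0106 to 0.155. It was lost in DESeq2's Wald test, which called Uqcrc1 instead, and without high glucose + TMAO replicate 1 (0.0743), high glucose + TMAO replicate 2 (0.154) or low glucose + TMAO replicate 3 (0.155). With vehicle, the same gene had 343, 362 and 367 normalised read counts at high and 317, 347 and 370 at low glucose, which overlapped.

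The next members with TMAO did not pass the test. Cox5a, a nuclear subunit of complex IV, had a log2 fold change of 0.19 ± 0.06 (adjusted p = 0.105), mt-Nd2 of 0.15 ± 0.05 (0.118), mt-Nd5 of 0.19 ± 0.07 (0.178) and mt-Nd4l of 0.34 ± 0.13 (0.180). Leaving out 1 library gave 0.14 to 0.23 for Cox5a, 0.09 to 0.21 for mt-Nd2, 0.15 to 0.27 for mt-Nd5 and 0.18 to 0.47 for mt-Nd4l. In all, 12 members were under an unadjusted p of 0.05, 10 of them higher, beside 14.7% of all genes. Libraries did not overlap for 7 members, beside 18.4% of all genes. Of the mitochondrial genes, 12 of 13 had a fitted fold change above 1 (median log2 fold change 0.14), beside 46 of 79 nuclear subunits (median 0.01) and 50.4% of all genes (median 0.00). The mitochondrial median was 0.06 without high glucose + TMAO replicate 1, with 10 of 13 genes above 1. The nuclear count turned to 29 of 79 without low glucose + TMAO replicate 3 and to 34 of 79 without high glucose + TMAO replicate 1, and was 61 of 79 without low glucose + TMAO replicate 1.

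Averaged over both treatments, high glucose raised mt-Nd4l and Atp5d, the 2 members called, beside 8.19% of all genes tested (4.13% higher). Mt-Nd4l encodes a membrane subunit of complex I. It had 185, 152 and 149 normalised read counts at low glucose with vehicle and 173, 197 and 189 with TMAO. At high glucose it had 195, 180 and 229 with vehicle and 289, 229 and 189 with TMAO. The high-glucose libraries reached further up but overlapped the low-glucose ones, and the log2 fold change was 0.32 ± 0.09 (1.25-fold, adjusted p = 0.0268). With the chromosome 1 copy summed into the gene, the log2 fold change was 0.21 and the adjusted p 0.0751. The call held in 13 of 21 alternatives, with adjusted p-values from 0.00302 to 0.103, and was lost with the copies summed, in limma with either pseudocount, and without high glucose + TMAO replicate 1, high glucose + vehicle replicate 3, low glucose + TMAO replicate 1, or low glucose + vehicle replicate 2 or 3.

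Atp5d had 3970, 3684 and 3590 normalised read counts at low glucose with vehicle and 3747, 3610 and 3742 with TMAO. It had 4086, 3914 and 4045 at high glucose with vehicle and 4127, 3941 and 3965 with TMAO. Low glucose + vehicle replicate 1 was the only low-glucose library that reached the high-glucose range. The log2 fold change was 0.11 ± 0.03, an increase of 7.76% (adjusted p = 0.0308). The call held in 12 of 21 alternatives (adjusted p from 0.00862 to 0.105) and was lost in limma with either pseudocount, with no filter on low counts, and without high glucose + TMAO replicate 1 or 2, high glucose + vehicle replicate 3, low glucose + TMAO replicate 2, or low glucose + vehicle replicate 2 or 3. Mt-Nd3 (0.18 ± 0.06, adjusted p = 0.0522), mt-Nd2 (0.10 ± 0.04, 0.093) and Ndufa4 of complex IV (0.10 ± 0.04, 0.0968) followed without passing the test. At an unadjusted p under 0.05 there were 14 members, beside 20.1% of all genes. The interval of the fold change (95%) lay within 1.25-fold of no change for 75 of 79 nuclear subunits and for 10 of 13 mitochondrial genes.

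**Figure D4:**
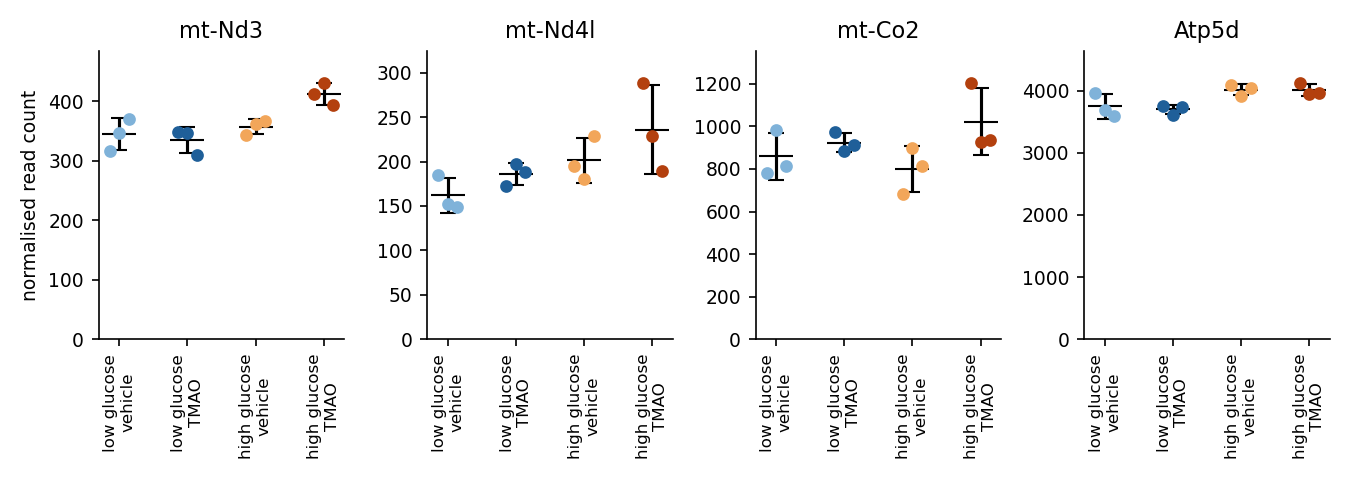
Normalised read counts of mt-Nd3, mt-Nd4l, mt-Co2 and Atp5d in each library. Points are libraries, horizontal bars are means and error bars are SDs of 3 libraries, and axes start at 0. Mt-Nd3 is highest in the 3 libraries of high glucose with TMAO, at 394 to 431, and Atp5d is at 3914 to 4127 in the 6 high-glucose libraries.

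TMAO was then compared with vehicle, the treatment the study addressed. At low glucose no member was called (0 of 101 by edgeR, beside 0.00616% of all genes), and DESeq2 and limma called none. At an unadjusted p under 0.05 there were 2 members, beside 2.2% of all genes, and libraries did not overlap for 2 members, beside 6.36%. Mt-Atp8, a small subunit of complex V, had 19, 25 and 20 normalised read counts with vehicle and 16, 11 and 8 with TMAO (log2 fold change -0.89 ± 0.37, adjusted p = 0.9999). Uqcrc1 (0.57 ± 0.22) rested on low glucose + TMAO replicate 3, at 357 normalised read counts against 147 to 211 in the other 11 libraries. Ndufaf6, an assembly factor (-0.16 ± 0.08), mt-Co3 of complex IV (0.37 ± 0.18) and Cox6a2 (-0.19 ± 0.12) completed the 5 of lowest p. With no filter on low counts, edgeR called Uqcrc1. Fold changes were above 1 for 32 of 79 nuclear subunits (median log2 fold change -0.01) and 10 of 13 mitochondrial genes (median 0.02), beside 50.7% of all genes. Neither direction held when 1 library was left out. The nuclear count was 11 of 79 without low glucose + TMAO replicate 1, 20 without low glucose + vehicle replicate 3, 52 without low glucose + vehicle replicate 1 and 55 without low glucose + TMAO replicate 3. The mitochondrial count was 5 of 13 without low glucose + TMAO replicate 2 and 12 of 13 without low glucose + TMAO replicate 3.

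At high glucose no member was called either (0 of 101 by edgeR, 0% of all genes), and DESeq2 and limma called none. At an unadjusted p under 0.05 there were 9 members, 3 higher and 6 lower, beside 5.35% of all genes. Libraries did not overlap for 13 members, beside 11.1%. Mt-Nd3 had 343, 362 and 367 normalised read counts with vehicle and 413, 431 and 394 with TMAO, which did not overlap (log2 fold change 0.21 ± 0.08, adjusted p = 0.910). The 4 next members were lower with TMAO in the fit: Ndufs7, a core subunit of complex I that carries an iron-sulphur cluster (-0.15 ± 0.06), Cox5b (-0.12 ± 0.05) and Cox7c (-0.12 ± 0.05) of complex IV, and Atp5k of ATP synthase (-0.16 ± 0.06), each at an adjusted p of 0.910. Ndufs7 had 1732, 1565 and 1550 normalised read counts with vehicle and 1478, 1436 and 1469 with TMAO, so that its groups were apart. For Atp5k, at 892, 868 and 839 with vehicle and 836, 705 and 794 with TMAO, they were apart by a few counts.

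The medians of the 2 genomes were apart at high glucose. This comparison shares its TMAO libraries with the glucose comparison within TMAO, so the values of one are not independent of the other. With TMAO, all 13 mitochondrial genes had a fitted fold change above 1 against 31 of 79 nuclear subunits and 50.2% of all genes, with a median log2 fold change of 0.14 against -0.02 and 0.00. The mitochondrial values ran from 0.06 for mt-Cytb to 0.44 for mt-Atp8. The groups of mt-Atp8 overlapped, at 7, 17 and 18 normalised read counts with vehicle and 25, 19 and 13 with TMAO. Mt-Co2, a copper-binding subunit of complex IV, was at 0.35 ± 0.13. Its normalised read counts were 684, 898 and 812 with vehicle and 1205, 928 and 934 with TMAO, which did not overlap, and edgeR called it when no filter on low counts was used. The 6 genes from mt-Co2 to mt-Nd4l had a median of 0.22 and the other 7 of 0.10. Without high glucose + TMAO replicate 1 the mitochondrial median was 0.09 and 12 of 13 genes were above 1, and the nuclear count was 23 of 79. Without high glucose + TMAO replicate 2 the nuclear count was 40 of 79. Scaling to nuclear genes kept 13 of 13 above 1. It moved the median log2 fold change of all genes only from 0.00039 to 0.0011, so it could hardly change this count. No p-value was computed over the genes of either genome, whose members share libraries and, for the mitochondrial ones, precursors. The interaction with glucose was not called for any member (0 of 101 by edgeR, 0% of all genes; DESeq2 and limma called none), with 2 members under an unadjusted p of 0.05 beside 3.36% of all genes. They were mt-Atp8 (1.33 ± 0.52) and mt-Nd3 (0.25 ± 0.11), and Cox7c (-0.14 ± 0.07), Ndufs7 (-0.16 ± 0.08) and Atp5e (-0.15 ± 0.07) came next, each at an adjusted p of 0.9998.

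**Figure D5:**
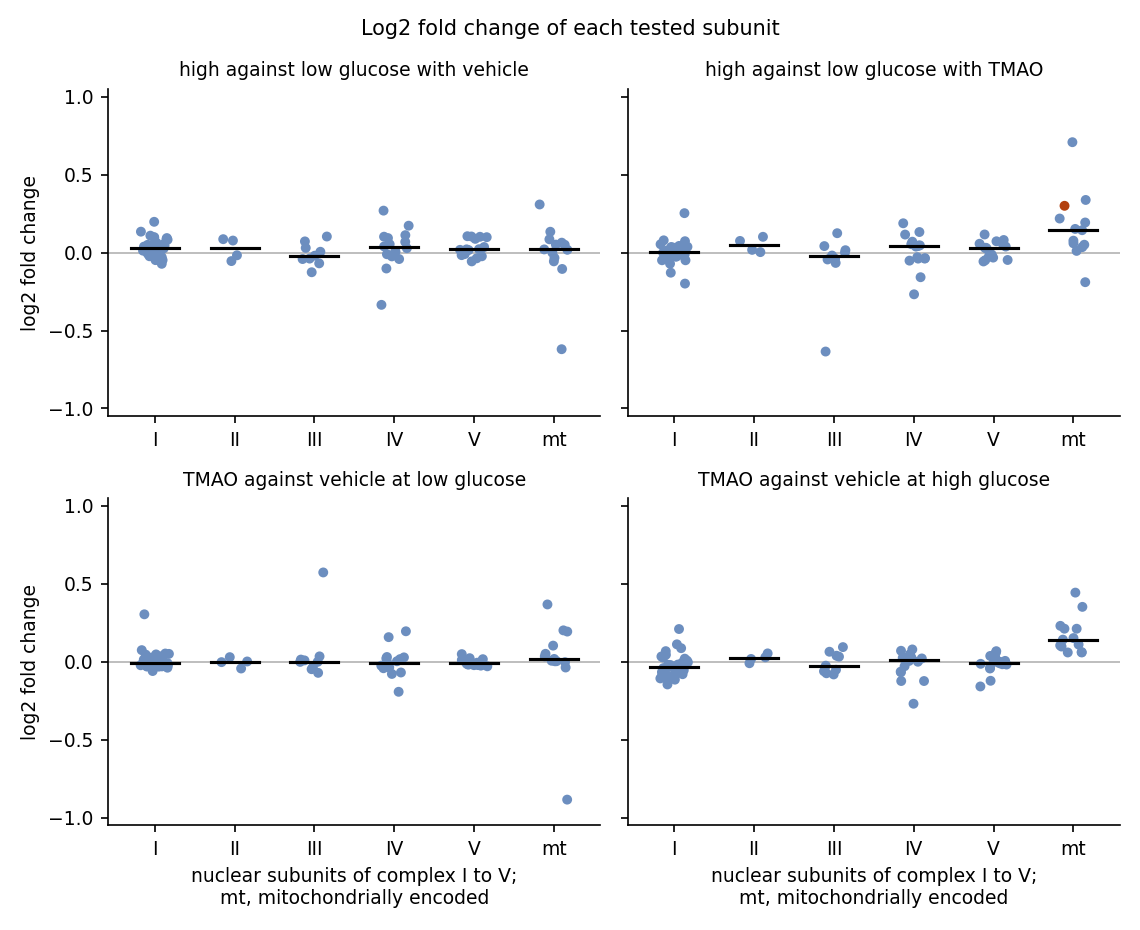
Log2 fold change of each tested subunit in the 4 comparisons within a treatment or glucose level, with the nuclear subunits by complex and the mitochondrially encoded genes (mt) apart. Points are genes, black bars are medians and the called gene, mt-Nd3, is in red. Medians of nuclear complexes lie between -0.03 and 0.05, and the mitochondrial median is 0.14 in both comparisons that contain high glucose with TMAO.

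By complex, the medians with TMAO at high glucose were -0.03 for 35 nuclear subunits of complex I, 0.02 for 4 of complex II, -0.03 for 9 of complex III, 0.01 for 16 of complex IV and -0.01 for 15 of complex V. For complex I, 10 of 35 were above 1, with 2 of 6 core and 8 of 29 accessory subunits. For complex V the figure was 5 of 15. The 95% interval lay within 1.25-fold of no change for 73 of 79 nuclear subunits, including 15 of 15 of complex V and 33 of 35 of complex I, so that larger changes of these were outside their intervals. It did so for 6 of 13 mitochondrial genes, and for 0 of the 6 from mt-Co2 to mt-Nd4l. Over both glucose levels TMAO gave no call (0 of 101 by edgeR, 0% of all genes; DESeq2 and limma called none). In that comparison 2 members were under an unadjusted p of 0.05, beside 3.62% of all genes, mt-Nd4l (0.22 ± 0.09) and mt-Co2 (0.23 ± 0.09). Mt-Co3 (0.29 ± 0.13), Ndufv1, which holds the NADH site of complex I (-0.07 ± 0.03), and Atp5k (-0.09 ± 0.05) followed. All 5 were at an adjusted p of 0.9999.

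Replicates were close for most members. The median coefficient of variation within a condition was 4.80% for the nuclear subunits and 6.93% for the mitochondrial genes, against 7.47% for all genes tested. Both sets had higher median levels, at 68.0 and 849 against 5.24 FPKM, and genes of equal level were not compared. Ndufa12, an accessory subunit of complex I, stood out at 37.0%. Its normalised read count was 865 in low glucose + TMAO replicate 2 and 343 to 682 in the other libraries. Mt-Atp8 was at 31.8%, on 7 to 25 normalised read counts.

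Other genes of the pathway were read from the same fit. The share of all genes called was 3.3% to 8.19% in the glucose comparisons and at most 0.00616% in those of TMAO, and 2.2% to 20.1% of all genes were under an unadjusted p of 0.05. None of the 46 tested assembly factors of complexes I to V was called in any comparison by edgeR, with 0 to 6 under an unadjusted p of 0.05. Of the 15 tested regulators of mitochondrial biogenesis, Ppargc1a (PGC-1α, a coactivator of nuclear respiratory genes) was the 1 called. It had 290, 255, 285, 267, 278 and 250 normalised read counts in the 6 low-glucose libraries and 355, 403, 498, 382, 371 and 476 in the 6 high-glucose ones, which did not overlap. High glucose raised it 1.51-fold with vehicle (log2 fold change 0.59 ± 0.11, adjusted p = 0.00199) and 1.54-fold with TMAO (0.62 ± 0.11, 0.00128), and the calls held in all 22 alternatives of each. Coq10b, a protein that binds ubiquinone, was the 1 called of 25 electron carriers, ubiquinone enzymes and ATP exchangers. It rose 1.83-fold with vehicle (0.87 ± 0.09, adjusted p = 3.31e-07) and 1.89-fold with TMAO (0.92 ± 0.09, 1.01e-07). It had 271 to 341 normalised read counts at low and 480 to 643 at high glucose.

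The ribosomal RNAs of the mitochondrial chromosome were higher at high glucose as well. Averaged over both treatments, mt-Rnr1 (12S) rose 1.16-fold (log2 fold change 0.21 ± 0.04, adjusted p = 0.000639) and mt-Rnr2 (16S) 1.18-fold (0.23 ± 0.04, 0.000194). Mt-Rnr2 had 2603 to 2714 normalised read counts at low glucose, 2571, 3074 and 3242 at high glucose with vehicle, and 3329, 3241 and 3261 with TMAO. Of the 6 high-glucose libraries, high glucose + vehicle replicate 1 was the 1 that did not exceed the low-glucose libraries, and it lay below them. The tRNA genes mt-Tn (0.41 ± 0.08) and mt-Te (0.33 ± 0.08) rose too, which made 4 of 13 tested. These RNAs lack the long poly(A) tails on which the library method selects, and their counts are small beside the 8591 to 99902 mean counts of the 7 abundant mitochondrial mRNAs. Nuclear genes for mitochondrial DNA upkeep, transcription and RNA handling gave 1 call of 29 over both treatments, beside 8.19% of all genes: Tefm, a transcription elongation factor, which fell by 0.25 ± 0.08 on the log2 scale (adjusted p = 0.0422). It was called in 12 of 21 alternatives and in 4 of the 12 that left out a library. Mitochondrial ribosomal proteins gave 3 calls of 77 over both treatments, all lower, a share under the 8.19% of all genes: Mrps2 (-0.19 ± 0.05, adjusted p = 0.00935), Mrpl14 (-0.15 ± 0.04, 0.0239) and Mrpl49 (-0.12 ± 0.04, 0.0487). Mrpl49 was called in only 6 of 21 alternatives. No gene of these lists was called between TMAO and vehicle by edgeR, with 0 to 3 in a list under an unadjusted p of 0.05.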

How the data were processed

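RNA was sequenced from 12 MIN6 cultures, 3 for each of 4 conditions, grouped by their titles. The authors deposited raw read counts per gene and FPKM values, divided by gene length and library depth, for the same libraries. The submitters' processing notes name HISAT2 2.0.5, featureCounts 1.5.0-p3, DESeq2 1.16.1 and mm10. How reads that match several places, overlapping genes or either strand were counted is not given in the sources used here, and without strand, reads of overlapping genes on opposite strands cannot be told apart. Totals of 16793162 to 22340542 counts per library limit the precision of genes with few counts. Every per-sample column was matched to a sample.

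Counts were fitted in R 4.3.3 with edgeR 4.0.16 (filterByExpr, TMM, robust quasi-likelihood test, Benjamini-Hochberg adjustment over all 16222 genes tested) as 4 condition means over all 12 libraries, and genes under an adjusted p of 0.05 are referred to as called. P-values measure the spread between these 3 cultures per condition. Normalised read counts were scaled by TMM to a common depth, and fold-change errors are standard errors. Alternatives were DESeq2 1.42.0 (its Wald test and its size factors), limma 3.58.1 on log2(FPKM + 1) and log2(FPKM + 0.1), scales that understate changes of low genes, scaling to nuclear genes, other filters, a replicate block, and leaving out each library. Summing the chromosome 1 copies into the mitochondrial genes was added after the data were seen. Copies were aligned with blastn 2.17.0. The steps were tested on simulated counts: for TMAO against vehicle at high glucose, with 14000 genes, 33 of 67 genes changed 1.25-fold, 52 of 67 changed 1.5-fold and 63 of 66 changed 2-fold were called, with 12 false calls. Low genes were left out, the spread was set by the level of a gene, glucose had no effect, and these genes were all changed at once. The counts called therefore do not give the power for 1 member changed alone.

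The members and gene lists were chosen with earlier results of these data known. Genes named are the mitochondrially encoded genes, called members, tissue isoforms, the highest and lowest nuclear subunit of each complex by FPKM, the 5 members of lowest p in a comparison with fewer than 5 calls, and called genes of the other lists. Ndufa12, Uqcrc2 and the neighbours of Ndufs3 and Uqcrc1 were named after their values were seen.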

Additional observations from a re-analysis of the deposited data

Results flagged for a closer look

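Signal was found in genes outside the members. The 7 annotated chromosome 1 copies of mitochondrial genes held between 1342 and 1832 summed counts per library. A gene on a patch scaffold at the position of Ndufs3, with the domain of the 30 kDa subunit of complex I, had from 4 to 153 counts per library, the highest in high glucose + TMAO replicate 1, while Ndufs3 itself had none in any library. In edgeR's test, the lowest adjusted p of the patch gene and the copies over all comparisons was 0.360, for the patch gene between glucose levels over both treatments (log2 fold change 1.59 ± 0.85). Single outlying libraries were not tested.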

How the results depend on the processing

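The fold changes recomputed for named genes kept their sign under the alternatives run, but counts of genes above 1 and medians near 0 did not. Leaving out 1 library gave 11 to 55 of 79 nuclear subunits and 5 to 12 of 13 mitochondrial genes above 1 for TMAO at low glucose, 23 to 40 of 79 and 12 to 13 of 13 for TMAO at high glucose, 40 to 64 of 79 and 5 to 11 of 13 for glucose with vehicle, and 29 to 61 of 79 and 10 to 12 of 13 for glucose with TMAO. With no filter on low counts, edgeR called 5 members between glucose levels with TMAO and 5 over both treatments, and 1 each for TMAO at low glucose, at high glucose and over both, of 104 members tested. The shares of all genes called in that fit were 2.49%, 4.92%, 0.0226%, 0.042% and 0.0291%. With only the libraries of the comparison, 2 were called between glucose levels with TMAO, beside 3.34% of all genes. Over both treatments, limma called 1 with either pseudocount, beside 6.5% of all genes with 0.1 and 6.53% with 1. Leaving out 1 library gave 0 to 5 calls between glucose levels with TMAO (0 without high glucose + TMAO replicate 1 or 2 or low glucose + TMAO replicate 3, 5 without low glucose + TMAO replicate 2), 0 to 6 over both treatments (0 without high glucose + TMAO replicate 1, high glucose + vehicle replicate 3 or low glucose + vehicle replicate 2, 6 without low glucose + TMAO replicate 2), and 0 in the TMAO comparisons. In the same fits the share of all genes called was 2.08% to 3.98% between glucose levels with TMAO and 5.93% to 8.75% over both treatments, and without low glucose + TMAO replicate 2 it was 3.98% and 8.28%. The mitochondrial median between glucose levels with TMAO was 0.057 to 0.18 when 1 library was left out, lowest without high glucose + TMAO replicate 1. With the replicate number as a block, 2 members were called between glucose levels with TMAO and 4 over both treatments, beside 4.83% and 10.3% of all genes, and 0 in the other comparisons. Deviations of same-numbered libraries had correlations of -0.04 to 0.21, and those of differently numbered ones -0.19 to 0.09. The highest, 0.21 and 0.15, were between same-numbered libraries at low glucose. The main fit was left without a block, and whether the numbers pair the cultures was not tested. The cause of these changes was not tested. Depth limits mt-Atp8, at 7 to 25 counts, and the untested minor isoforms.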
